A study of Mus musculus with 4 samples.

Results

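The E proteins and their Id inhibitors were followed in lineage-negative mouse bone marrow with and without Mtg16. The family was taken as 7 genes chosen by name, the E protein genes Tcf3, Tcf4 and Tcf12 and the inhibitor genes Id1, Id2, Id3 and Id4. Of these, 5 had a probe whose annotation gives a single gene symbol, 1 probe each, out of 13840 genes with such a probe. Of the 5, 4 were bright enough to be among the 8445 genes tested. Id2 and Id3 were not analysed here, and Id4 was too dim for the test and is described by its signals. The arrays measured total RNA of marrow from femur and tibia, depleted on magnetic columns of cells that carry mature lineage markers, which leaves a fraction enriched for stem and progenitor cells. Wild-type mice were C57BL/6. The mice labelled Mtg16 null had been backcrossed into C57BL/6 to N4, so remaining donor-strain genome and the null allele cannot be told apart. All mice were females of 8 to 12 weeks, and each RNA came from 4 mice pooled. There were 2 arrays per genotype, and each of 2 array lots held 1 array of each. Nothing in the labels tells if each array had its own pool of mice, so p-values cover only array-to-array spread, which may be technical.

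E proteins are basic helix-loop-helix transcription factors that bind DNA as dimers at E-boxes, short sites of the form CANNTG. They pair with each other or with tissue-restricted partners such as Scl (Tal1), and in blood progenitors they switch on lymphoid genes and restrain proliferation. Id proteins carry the helix-loop-helix but lack the basic region that contacts DNA, so an E protein held by an Id protein does not bind. Mtg16 (symbol Cbfa2t3) is a corepressor of the ETO family, whose members bind E proteins directly and are found in complexes with Scl. The comparison asks whether the transcripts of this family, of its partners and of its lymphoid targets differ in marrow without Mtg16.

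Signals are given in array units on a linear scale. The deposited values share a common distribution on the 4 arrays, with a median of 470 units. The probes of 3 Y-linked genes, which female mice lack, read between 94.5 and 310 units and show what unspecific signal looks like here. The Cbfa2t3 probe read 80854 and 100256 units in the wild-type arrays and 95520 and 118572 in null. Its position relative to the deleted sequence is not known from the files, so it checks the labels in neither direction. Kit, the stem cell factor receptor of progenitors, read between 34022 and 47408 units and the T cell gene Cd3e between 120 and 325. Kit was 1 of 7 stem and progenitor markers with a probe, of which 6 were bright enough for the test. Cd3e was the 1 of 9 natural killer, T and innate lymphoid markers under the array median on all arrays. Of those 9, 7 were bright enough for the test.

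Among the members, Id1 was the gene whose null arrays stood clear of the wild-type arrays by at least 1.5-fold in both lots. Id1 inhibits E proteins and is induced by bone morphogenetic protein (BMP) signalling. In lot 1 its probe read 1745 units in the wild-type array and 4418 in that of the null mice. In lot 2 the readings were 1988 and 3963 units. Both null arrays were above both wild-type arrays, and the readings within a genotype lay close together. The means were 1867 ± 172 units in wild type and 4190 ± 322 in null (SD, n = 2), 2.25-fold higher in null. The ratio was 2.53-fold in lot 1 and 1.99-fold in lot 2.

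The Id1 difference was 1.17 on the log2 scale (SE 0.19, 95% interval 0.66 to 1.68), with an unadjusted p of 0.00297 by limma's moderated test. After Benjamini-Hochberg adjustment over the 8445 genes, limma gave 0.104, and 0.113 with the lot as a block, so Id1 did not pass at 0.05. Of all genes tested, 3.94% had a more positive difference. Groups that did not overlap and lay at least 1.5-fold apart in both lots, higher in null, were found for 8.25% of the 8445 genes, and 5.44% met that rule in the lower direction. Over all genes 10 passed limma, all lower in null, or 0.118%.

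No E protein gene passed the test or met the 1.5-fold rule. Tcf3, which encodes E12 and E47, read 3107 and 1955 units in wild type and 2533 and 1771 in null. The groups overlapped, and in both genotypes the lot 1 array was the brighter. The change from lot 1 to lot 2 was -0.67 on the log2 scale in wild type and -0.52 in null, larger than the genotype difference of -0.22 (SE 0.34, interval -1.15 to 0.71, limma adjusted p = 0.834). Within the lots the genotype difference was -0.29 and -0.14. A fit blocked on lot gave an SE of 0.12, an interval of -0.63 to 0.19 and a limma adjusted p of 0.380. Leaving out wild-type array 1 gave 0.12 and null array 2 gave 0.04, but each leaves an unbalanced set of lots.

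Tcf4, which encodes E2-2, the E protein that plasmacytoid dendritic cells need, lay at percentile 94.3 of all probes by mean level. It read 39705 and 43559 units in wild type and 45146 and 45304 in null. The null readings were the higher ones, by 1.14-fold in lot 1 and 1.04-fold in lot 2. Such separation without a fold limit, higher in null, was found for 22.6% of all genes. The difference was 0.12 (SE 0.17, interval -0.35 to 0.59, limma adjusted p = 0.813). Of 6 plasmacytoid dendritic cell markers tested, 0 were separated upwards by 1.5-fold in both lots and 1, Ly6d, downwards. Over all genes the shares were 8.25% and 5.44%. By sign 4 of the 6 were negative, with a median of -0.53. Siglech read 4337 and 7092 units in wild type and 6165 and 8667 in null, while Ccr9 had a difference of -0.50, Ly6d -0.85 and Klk1 -1.65. The summed signal, most of it Bst2, ran from 43647 to 57188 units in wild type and from 42997 to 55450 in null, and its part in the Tcf4 reading was not tested.

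Tcf12, which encodes HEB, a partner of E2A in lymphocyte development, read 4949 and 4334 units in wild type and 3966 and 4624 in null. The groups overlapped and the lots went opposite ways, by -0.32 and 0.09 on the log2 scale. The difference was -0.11 (SE 0.19, interval -0.65 to 0.42, limma adjusted p = 0.853). For none of the 3 E protein genes does the test show that levels were equal. A 2-fold change lies outside the intervals of Tcf4 and Tcf12 in both directions. For Tcf3 a 2-fold lower level lies inside the interval without the block and outside that with it.

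Id4 read 152 and 372 units in wild type and 398 and 126 in null. It was higher in null in lot 1, by 1.38 on the log2 scale, and lower in lot 2, by -1.56. These readings straddle the range of the Y-linked probes, and no level of Id4 above unspecific signal was resolved. Of the 4 members tested, 0 passed limma after adjustment. Without adjustment 1 of the 4, Id1, had a p under 0.05, with and without the lot as a block, as did 16.5% of all genes, or 24.3% with the block, and 9.65% had one in the direction of Id1, higher in null. The median difference of the 4 was 0.004 on the log2 scale, against -0.02 over all genes.

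**Figure D1:**
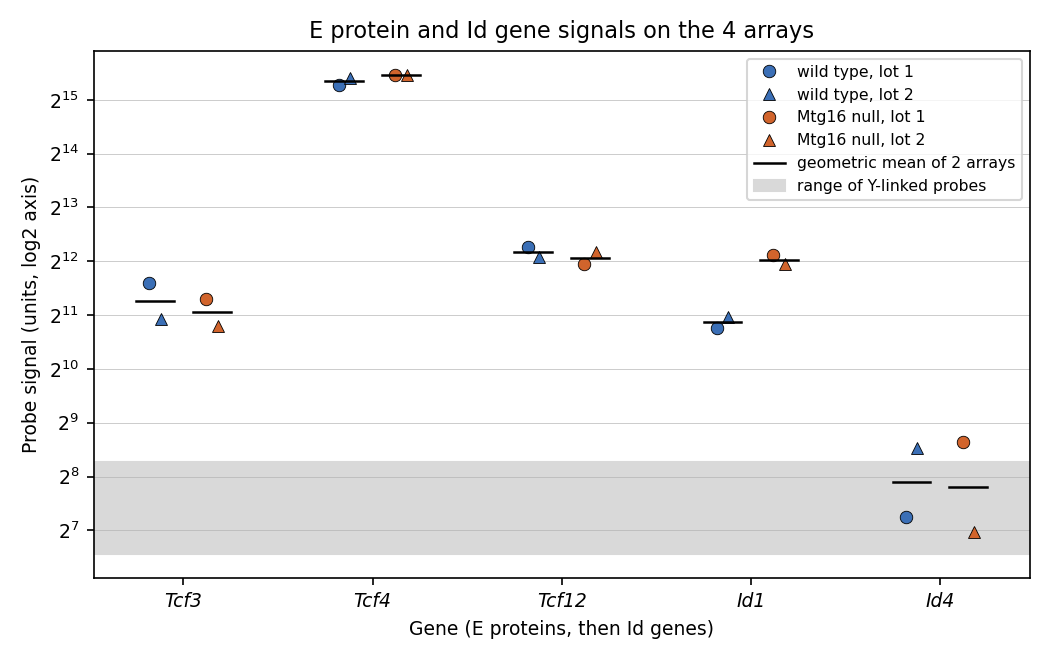
Signal of the 5 members with a probe on each array, in units on a log2 axis. Circles are lot 1, triangles lot 2, blue wild type and orange Mtg16 null, with the geometric mean of each pair as a bar and the range of Y-linked probes in grey. Id1 is the member whose null arrays (4418 and 3963 units) lie clear of wild type (1745 and 1988), while Tcf3 and Tcf12 overlap, Tcf4 differs little and Id4 scatters around the grey band.

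**Figure D2:**
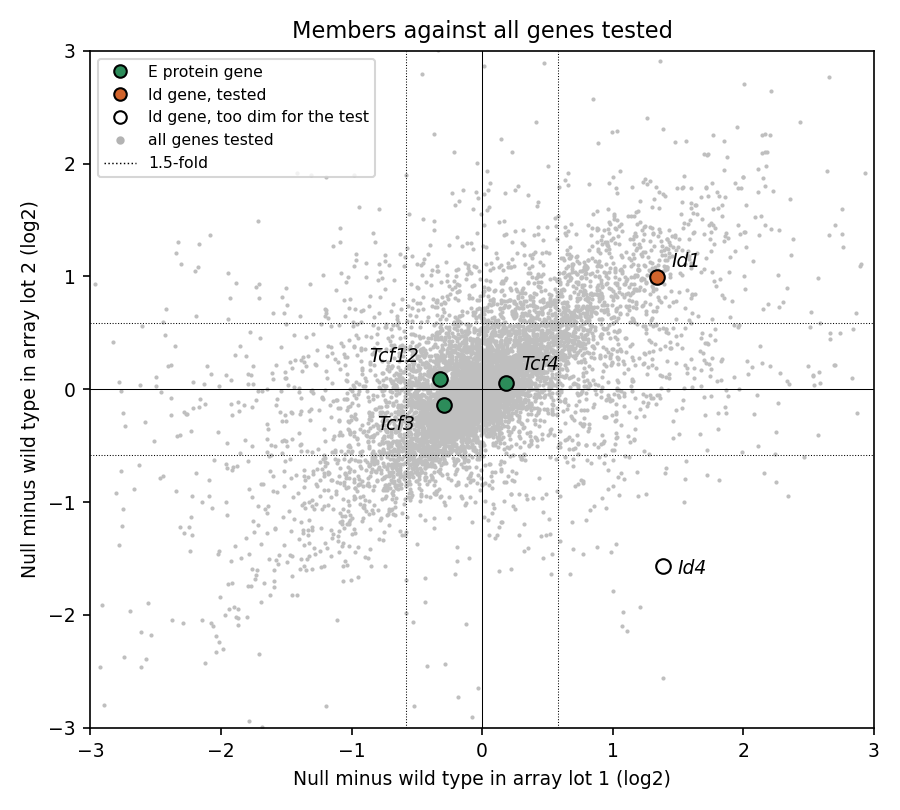
Null minus wild type in array lot 1 (horizontal) against lot 2 (vertical), both on the log2 scale, for all genes tested (grey) and the 5 members, with 52 genes outside the axes. Id1 lies past the dotted 1.5-fold lines in both lots, the 3 E protein genes lie near the origin, and Id4 lies in the quadrant where the lots disagree.

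The genes with a profile most like Id1 over the 4 arrays were Gopc, a Golgi-associated PDZ protein gene, P2ry14, which encodes a receptor for UDP-sugars, and Msantd3. Likeness was the root mean square distance between log2 profiles centred on their means, which was 0.015 for Gopc, 0.027 for P2ry14 and 0.028 for Msantd3. P2ry14 read 1549 and 1739 units in wild type and 4052 and 3602 in null. Within 0.2 of the Id1 profile lay 226 of the 8445 genes tested, so that profile over 4 arrays was not particular to Id1. For Id4 the nearest were Gpat3 (0.18), Myh14 (0.22) and Olfr1232 (0.27).

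Marker lists of several cell types differed between the arrays that differ in Id1, some of them more than Id1 did. Over all genes 8.25% were higher and 5.44% lower by the 1.5-fold rule. The largest shift was in late neutrophil markers, of which 9 of 9 tested were lower by that rule and 5 passed limma. Their median difference was -3.64, and their summed signal was 1328367 and 1444388 units in wild type and 154128 and 143835 in null. Of 5 endothelial and stromal markers tested, 3 (Pecam1, Kdr and Tek) were higher and 1 (Col1a1) lower by the 1.5-fold rule. Their summed signal was 11961 and 12066 units in wild type and 17456 and 18950 in null. The median difference was 0.95 over these 5 and 0.56 over the 9 with a probe, dim genes included. The defining endothelial gene Cdh5 read 282 and 390 units in wild type and 59.0 and 216 in null, near or within the Y-linked range. Of 7 natural killer, T and innate lymphoid markers tested, 3 (Nkg7, Gzma and Klrb1c) were higher and 0 lower. Their sum, most of it Nkg7, went from 73074 and 73750 units to 247898 and 217151. The median difference was 0.86 over these 7 and 0.50 over the 9 with a probe, dim genes included. Of 7 early granulocyte markers, 6 were higher by the same rule, and their sum went from 1689228 and 1602691 units to 4112756 and 3460852. Of 3 monocyte and macrophage markers, 3 were higher, and their sum went from 26631 and 23757 units to 50254 and 56493. The 6 stem and progenitor markers tested, Kit among them, gave 2 higher and 0 lower. By sign 4 were positive and 2 negative, with a median of 0.41. Their sum went from 83700 and 85541 units to 113033 and 117167. The part of these cells in the Id1 reading was not tested, and more cells of a type cannot be told apart from more RNA per cell in pooled marrow.

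The dimerisation partners of E proteins gave no call. Of 27 tissue-restricted class II helix-loop-helix genes, 22 had a probe and 8 were tested, while 12 stayed under the array median of 470 units on all arrays. None of the 8 met the 1.5-fold rule in either direction, 0 passed limma, and 0 had an unadjusted p under 0.05. The shares of all genes were 8.25% higher and 5.44% lower by that rule, 0.118% past limma and 16.5% with such a p. For 8 genes, counts of 0 cannot be told from those shares. With the lot as a block 3 of the 8, Lyl1, Atoh8 and Bhlha15, had an unadjusted p under 0.05, all higher in null, as did 24.3% of all genes in either direction, and 0 passed after adjustment. The median difference of 0.01 depended on the arrays used, being -0.12 when wild-type array 2 was left out and 0.43 when array 1 of that group was, and was 0.33 over the 22 genes without the brightness filter, most of them dim. Tal1, the Scl gene, read 77877 and 69477 units in wild type and 56108 and 62684 in null. The null readings were the lower, with a difference of -0.31 (limma adjusted p = 0.508). Its close relative Lyl1 read 9312 and 4503 units in wild type and 14420 and 9242 in null. Its groups overlapped, lot 2 was dimmer in both genotypes, and within the lots the difference was 0.63 and 1.04 (limma adjusted p = 0.483, or 0.140 in the fit blocked on lot). With the block its interval was 0.28 to 1.39. Bhlha15, which encodes the secretory cell factor Mist1, read 1783 and 1782 units in wild type and 2383 and 2509 in null (adjusted p = 0.304, and 0.173 with the block).

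In the Scl complex, LIM-only proteins and Ldb1 join Scl with its E protein to a GATA factor. Lmo1 was higher and Gata1 lower by the 1.5-fold rule among 10 genes tested. Over all genes 8.25% were higher and 5.44% lower by that rule. Lmo1, a LIM-only gene known as a T cell leukaemia oncogene, read 793 and 655 units in wild type. In null it read 2456 and 2033 units, clear of the wild-type arrays in both lots. It was 3.10-fold higher, by 1.63 in each lot on the log2 scale (limma adjusted p = 0.0975). Gata1, the erythroid GATA factor, read 53860 and 44692 units in wild type and 30302 and 28232 in null (adjusted p = 0.199), and of 5 erythroid markers tested 3 were lower and 0 higher by the same rule. The sum of those markers was 908036 and 765969 units in wild type and 578003 and 509505 in null, and its part in the Gata1 reading was not tested.

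Lmo4, a further LIM-only gene, read 19264 and 15505 units in wild type and 25690 and 24912 in null. Its groups did not overlap, at 1.33-fold in lot 1 and 1.61-fold in lot 2 (unadjusted p = 0.0486, limma adjusted p = 0.2996). Lmo2, the LIM-only gene that blood stem cells require, read 158252 and 177755 units in wild type and 150514 and 142031 in null, a difference of -0.20 (adjusted p = 0.685). Gata2, the GATA factor of stem and progenitor cells, had a difference of -0.01 (interval -0.47 to 0.45). Ldb1, the scaffold of the complex, had -0.47 in lot 1 and 0.36 in lot 2. The median of the 10 was -0.04, and 0 passed limma, with 3 (Lmo1, Gata1 and Lmo4) at an unadjusted p under 0.05. Of all genes 16.5% had such a p.

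Cofactors and turnover factors gave no call. Of 6 coactivator genes, 3 had a probe of a single gene symbol, and Ep300, Crebbp and Taf4 were not analysed here. Of 3 coactivator genes tested (Carm1, Kat2a and Kat2b) and 6 genes acting on the stability of Id or E proteins (Usp1, Wdr48, Fzr1, Cdc20, Skp2 and Stub1), 0 met the 1.5-fold rule, 0 passed limma and 0 had an unadjusted p under 0.05. Among all genes tested, 8.25% were higher and 5.44% lower by that rule, 0.118% passed limma and 16.5% had such a p. Lists of 3 and 6 genes are too short for counts of 0 to be told from those shares. The medians were -0.11 and -0.03. Usp1, a deubiquitinase that stabilises Id proteins, read 20675 and 16337 units in wild type and 20341 and 20468 in null, and the groups overlapped.

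Upstream of Id1, genes of BMP and transforming growth factor beta (TGF-beta) signalling gave no call. Of 23 genes, 21 had a probe and 11 were bright enough for the test. Over the 21, dim genes included, 16 differences were positive and 5 negative, where 49.3% of all 13840 genes were positive, and the median was 0.29. The lean was shared by the 22 class II genes, most of them dim, with 16 positive, 6 negative and a median of 0.33. The 11 tested had a median of 0.49, but Acvr1 lay under the array median in both wild-type arrays and passed the filter through its null readings. By the 1.5-fold rule 2 were higher and 0 lower, against 8.25% and 5.44% of all genes, and 0 passed limma. At an unadjusted p under 0.05 there were 4 higher and 1 lower, or 5 and 1 with the lot as a block. Of all genes 16.5% had such a p in either direction, or 24.3% with the block. Bambi, a decoy receptor that dampens the pathway, read 1981 and 3497 units in wild type and 5008 and 5802 in null. Its null arrays were above both wild-type arrays, by 1.34 in lot 1 and 0.73 in lot 2 (limma adjusted p = 0.269). The difference of 1.03 became 0.62 without wild-type array 1.

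Tgfbr2, the type II TGF-beta receptor, read 593 and 667 units in wild type and 923 and 1022 in null, 1.54-fold higher (adjusted p = 0.235). Acvr1, a type I receptor for BMP ligands, read 337 and 450 units in wild type and 1158 and 610 in null, with 1.78 in lot 1 and 0.44 in lot 2. The ligand gene Tgfb1 had differences of 0.42 and 0.73 in the lots. Eng, the co-receptor endoglin, was the negative one, at 16382 and 12754 units in wild type and 9704 and 8803 in null (-0.65, adjusted p = 0.272). Of the signal transducers that act on Id genes, Smad5 had a difference of 0.49 (interval -0.98 to 1.97, and 0.11 to 0.88 with the lot as a block, where the limma adjusted p was 0.158). Smad6, an inhibitory Smad gene, had 0.19 (interval -0.47 to 0.84). The BMP receptor gene Bmpr1a and the transducer gene Smad1 stayed between 103 and 247 units on all arrays, within the Y-linked range, and were not tested. Bmpr1b, a further BMP receptor gene, read 287 and 284 units in wild type and 144 and 127 in null, also within that range.

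**Figure D3:**
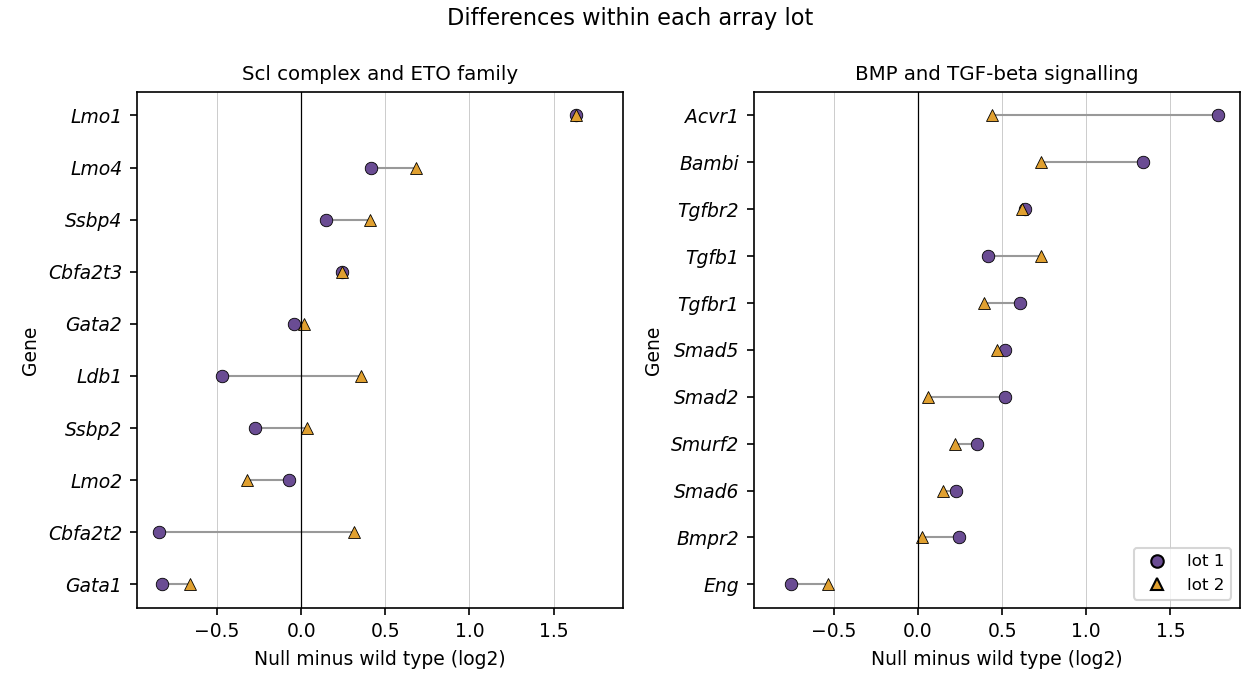
Null minus wild type (log2) within lot 1 (circles) and lot 2 (triangles) for the tested genes of the Scl complex with the ETO family (left) and of BMP and TGF-beta signalling (right). Lmo1 and Gata1 stand apart from 0 in both lots on the left, while on the right all genes but Eng are positive in both lots and Acvr1 and Bambi differ most between lots.

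Lymphoid genes that E proteins are known to activate mostly read higher in null, without a call. Of 19 genes, 16 had a probe and 11 were tested. Over the 16, dim genes included, 15 differences were positive and 1 negative, where 49.3% of all 13840 genes were positive. The median of the 16 was 0.69. By the 1.5-fold rule 6 were higher (Vpreb1, Dntt, Ebf1, Vpreb3, Rag1 and Hes1) and 0 lower, against 8.25% of all genes higher. None passed limma, and 7 had an unadjusted p under 0.05, or 8 when blocked on lot, all higher in null. Of all genes 9.65% had such a p in that direction, and 24.3% in either direction with the block. The median of the 11 was 1.00 on the log2 scale. The early granulocyte markers had a median of 1.89 and the monocyte and macrophage markers one of 0.96, and their part in these readings was not tested. The list was drawn up with earlier results of these arrays known, so its direction is not independent evidence.

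Ebf1, the B lineage factor that E2A activates, read 1537 and 1918 units in wild type and 4102 and 4813 in null (limma adjusted p = 0.104). Vpreb1 and Vpreb3, genes of the pre-B cell receptor and its assembly, differed by 1.75 and 1.18 in lot 1 and by 1.48 and 1.23 in lot 2. Dntt, which encodes terminal transferase, had 1.33 and 1.79 in the lots. Hes1, a repressor gene that Notch also activates, read 1019 and 1090 units in wild type and 1903 and 2320 in null (adjusted p = 0.130). In each of these genes both null arrays were above both wild-type arrays.

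The cell cycle inhibitor gene Cdkn1a, which E2A is known to induce, read 1735 and 1396 units in wild type and 2493 and 2270 in null. Its lot 1 difference of 0.52 fell short of 1.5-fold and its lot 2 difference was 0.70. Foxo1, a factor of early B cells, overlapped between genotypes, with 0.61 and 0.12 in the lots. Cd79a, a B cell receptor subunit, overlapped as well, with 0.12 and 0.61. Pax5, the gene of B lineage commitment, stayed between 203 and 322 units, and Ptcra and Notch1 stayed below 231 units, near or within the Y-linked range.

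The B lineage markers fixed beside that list did not meet the rule, but those tested had positive differences. Of 3 tested (Blnk, Cd79a and Cd79b), 2 of them shared with the target list, 0 met the 1.5-fold rule. That rule held for 8.25% of all genes upwards and 5.44% downwards, so 0 of 3 cannot be told from those shares. All 3 differences were positive, with a median of 0.45. Over the 6 with a probe, dim genes included, 4 were positive and 2 negative. The Cd79b groups did not overlap, at 1.47-fold in lot 1 and 1.98-fold in lot 2. The summed signal of the 3 was 20919 and 15147 units in wild type and 30076 and 26060 in null. Ms4a1, the CD20 gene of later B cells, read 1444 and 1767 units in wild type and 68.0 and 143 in null, a null level within or below the Y-linked range. It lay just under the brightness limit of the test, at percentile 49.5, and without that limit limma gave an adjusted p of 0.260. The part of B precursor number in the readings of the target genes was not tested.

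**Figure D4:**
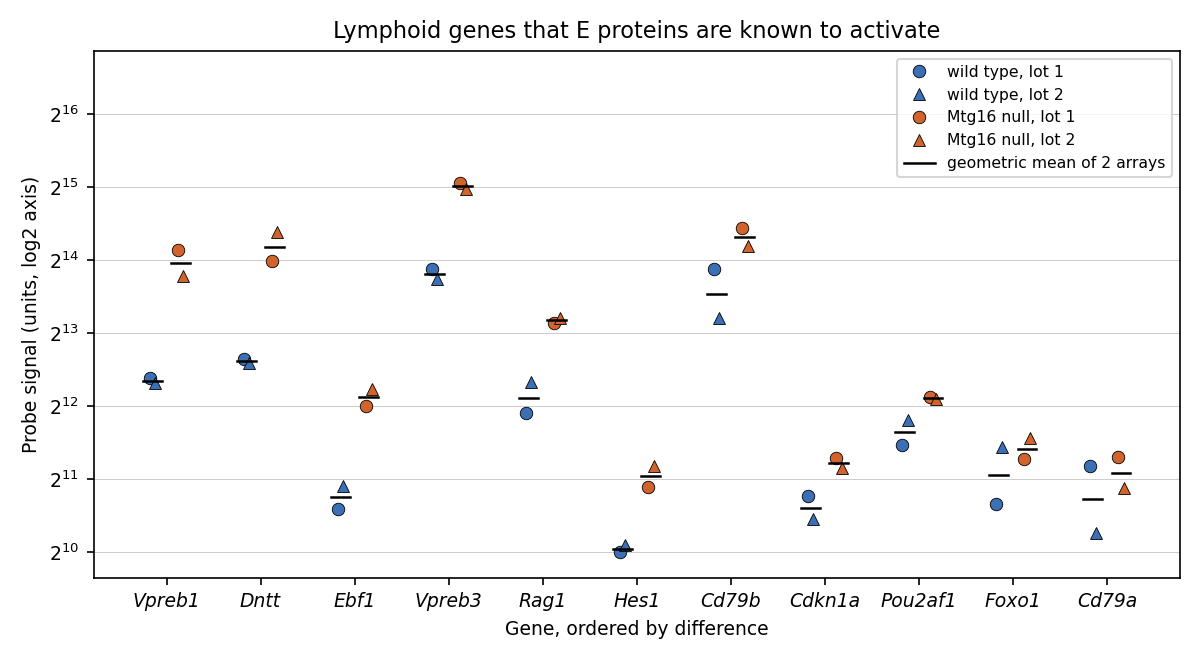
Signal of the 11 tested lymphoid target genes on each array, in units on a log2 axis, ordered by difference, with symbols as for the members. The null arrays of the first 8 genes and of Pou2af1 lie above both wild-type arrays, while Foxo1 and Cd79a overlap.

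The promoter windows of these targets were read for the E-box forms that E proteins favour, since Rag1, Vpreb1 and Dntt read higher together. The windows are the 250 bases before an annotated start, from RefSeq on GRCm38.p6. The letters CAGCTG, and CACCTG with its reverse complement CAGGTG, were searched, which covers both strands, and no match overlaps another. Capitals mark the matches. Rag1 is shown because it holds 2, Vpreb1 because it holds 1, and Dntt because it holds none of these forms although it differed as much. The windows are chr2:101649533-101649782 (minus strand) for Rag1, chr16:16869256-16869505 (minus strand) for Vpreb1 and chr19:41029025-41029274 (plus strand) for Dntt.
Rag1: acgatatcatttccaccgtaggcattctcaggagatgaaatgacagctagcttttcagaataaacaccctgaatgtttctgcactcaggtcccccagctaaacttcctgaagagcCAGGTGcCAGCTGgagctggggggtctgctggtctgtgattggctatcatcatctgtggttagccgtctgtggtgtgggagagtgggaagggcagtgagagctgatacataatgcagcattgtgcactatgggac
Vpreb1: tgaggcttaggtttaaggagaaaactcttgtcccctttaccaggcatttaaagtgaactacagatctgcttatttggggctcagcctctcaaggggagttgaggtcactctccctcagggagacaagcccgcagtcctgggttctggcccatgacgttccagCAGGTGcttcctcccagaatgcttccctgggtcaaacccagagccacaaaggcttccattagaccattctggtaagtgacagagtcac
Dntt: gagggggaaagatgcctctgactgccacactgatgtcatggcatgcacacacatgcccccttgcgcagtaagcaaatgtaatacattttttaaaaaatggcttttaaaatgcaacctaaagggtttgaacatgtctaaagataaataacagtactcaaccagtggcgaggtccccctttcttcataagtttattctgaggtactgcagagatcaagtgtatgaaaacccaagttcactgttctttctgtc

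In Rag1 the matches begin 135 and 128 bases before the start, and in Vpreb1 the match begins 88 bases before it. Of the 6 targets that met the 1.5-fold rule, 5 had a window, and 2 of those 5 genes held a match. Over all 27025 genes with a window, 30.6% held 1 of these forms, so the share among the targets is no result about them. The general form CANNTG was found in 66.2% of all 32851 windows, Dntt included with 3. Of the members, Tcf3, Tcf12, Id2, Id3 and Id4 were searched, and no window was read for Id1 or Tcf4. A match was found in the windows of Id2 and of 1 of 3 starts of Tcf12. A match is a description of letters, not a bound site.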

How the data were processed

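The authors deposited 1 table of probe intensity on a linear scale, from single-colour Applied Biosystems arrays with digoxigenin-labelled cRNA, per the labels' protocols. Its sorted values differ by at most 0.286% between arrays, so they had been quantile normalized; for the scanner software, background correction and filters, no source used here gives them. Of 33012 probes, 14411 had 1 gene symbol, 247 several and 18354 none, by the platform annotation, and 14402 matched the RefSeq table of GRCm38.p6, which changed 0 symbols.

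Values under the 1st percentile (75.8 units) were raised to it before log2. Probes in the upper 50% of mean log2 signal were kept, with the probe of highest mean signal per gene, giving 8445 genes. Null minus wild type was fitted with limma 3.58.1 in R 4.3.3 (lmFit, eBayes, genotype only, 2 residual and 2.11 prior degrees of freedom) and adjusted by Benjamini-Hochberg over all genes. The script was tested on simulated data. With arrays there is no read depth, and their number limits the precision.

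The replicate number is the array lot, per the series text. Deviations of same-lot arrays correlated at 0.50 over genes. The fit with the lot as a block is given for Id1, Tcf3 and the count of members. It is also given for the class II, BMP and TGF-beta, and lymphoid target lists, whose unadjusted counts it moved. The block also moved unadjusted counts of some marker lists, for which it is not given. Figures were drawn with matplotlib 3.10.9.

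The members and lists were chosen with earlier results of these data known. From each list the text takes up to 4 genes per direction that met the 1.5-fold rule in both lots, by the smaller difference of the 2 lots. Other genes, Rag1 and Hes1 among them, were chosen after their values were seen. Alternatives were the lot block, no filter or the brighter 25% of probes, no floor or one at the 5th percentile, cyclic loess, median centring, a variance trend, the mean over probes, every probe on its own, and leaving out each array.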

Additional observations from a re-analysis of the deposited data

Results flagged for a closer look

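Id4 differed between the array lots in direction. Null minus wild type was 1.38 on the log2 scale in lot 1 and -1.56 in lot 2, with 1 array of each genotype in a lot. The difference between lots was not tested, and the readings of 126 to 398 units overlap the 94.5 to 310 units of the Y-linked probes.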

How the results depend on the processing

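No member passed limma under any of the 14 alternatives. The Id1 difference lay between 1.07 and 1.26 in all settings that kept it, with an adjusted p between 0.0593 (variance trend) and 0.551 (without null array 1). The brighter 25% of probes left out Id1 and Tcf3, so 0 members met the 1.5-fold rule there. With an array left out, Tcf3 ran from -0.55 to 0.12, Tcf4 from 0.05 to 0.19, Tcf12 from -0.22 to -0.002 and Id4 from -0.92 to 0.74. Over all genes, the 10 calls became 0 with the replicate block, without the filter, with every probe on its own and without each array in turn, 291 with the brighter 25% of probes and 295 with a variance trend. No member passed in the main fit and 0 genes passed with the replicate block, so no member's call could change there. The same holds for each setting in which no gene passed. Vpreb1, Dntt and Vpreb3 passed with the variance trend (adjusted p = 0.0201, 0.0227 and 0.0223) and with the brighter 25% of probes (0.0178, 0.0213 and 0.0214), Ebf1 with the trend (0.0479) and Rag1 with the brighter 25% (0.0455). The lymphoid target median ran from 0.69 to 1.13, the BMP and TGF-beta median from 0.25 to 0.57, the class II partner median from -0.12 to 0.43, the Scl complex median from -0.12 to 0.10, the coactivator median from -0.27 to 0.06 and the turnover median from -0.16 to 0.19. With 3 arrays, the lone array of its group is assumed to vary like the other group.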
